A study of Mus musculus with 24 samples.

Results

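The genes described here are 39 members of the transforming growth factor beta (TGF-beta), bone morphogenetic protein (BMP) and activin pathway in the mouse right ventricle. They were taken by gene name from a list of ligands, extracellular binding proteins, receptors, Smads and target genes. Of the 39, 37 had a probe detected (well above background) throughout at least 1 group and were tested among 12591 genes. Mstn, which encodes the muscle ligand myostatin, was well above background on 3 of 24 arrays and the BMP antagonist Grem1 on 0 of 24, so both were left out of the tests.

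Microarrays of 1 colour measured right ventricular RNA in 24 samples, 1 array a sample. There were 10 samples after sham surgery and 14 after PSPI, the labels' name for an operation that loads the right ventricle with both pressure and volume: 5 at month 1, 5 at month 2 and 4 at month 3. Every sample carries the strain entry M/FVB/10-12, which the labels do not explain, and no genotype or drug is named for any group. The shams carry no month in their names. All 10 were therefore the control of every month, and the monthly comparisons share them. The series' design text speaks of 4 to 5 controls, fewer than the 10 arrays titled Sham, so how many sham animals these are is not known. Since separate animals are not stated, a p-value here covers only the spread among arrays, which may be technical.

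TGF-beta ligands are secreted in a latent complex with a binding protein of the LTBP family, and once released they bring together a type II and a type I receptor that phosphorylates Smad2 and Smad3. BMPs use other receptors of the same family and signal mainly through Smad1 and Smad5, while activins share the Smad2 and Smad3 branch. Both branches need Smad4 to act on genes, and both induce inhibitors of themselves, among them Smad6, Smad7 and Skil. In the loaded heart the pathway is best known for its part in fibroblast activation and matrix deposition. In whole ventricle, fewer cells of a type and less RNA per cell cannot be told apart.

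The probes of the TGF-beta ligands are shown first because Tgfb1 and Tgfb2 carry most of the ligand result and are close relatives. Both lie in coding sequence for the end of the mature ligand, Tgfb1 at chr7:26489877-26489936 on the plus strand and Tgfb2 at chr1:188449333-188449392 on the minus strand of mm9. Capitals mark the bases that are the same when the probes are laid over each other without gaps.
Tgfb1 probe: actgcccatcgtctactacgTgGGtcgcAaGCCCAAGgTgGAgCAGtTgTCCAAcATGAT
Tgfb2 probe: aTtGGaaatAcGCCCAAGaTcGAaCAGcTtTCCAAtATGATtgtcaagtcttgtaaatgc
Over the 41 overlapping bases 28 matched (68.3%) and 13 differed.

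Promoter windows from RefSeq (GRCm38.p6, 250 bases before and 50 after each start) were found for 28 of the 39 members. The palindrome GTCTAGAC, to which SMAD proteins bind, was looked for on both strands because Smad6 is the inhibitory Smad that rose. As it was chosen for that gene, its share among the members says nothing about them as a set. It was in 1 of the 28 genes, Smad6 (3.57%), against 0.248% of all 27025 genes and 0.213% of all 32851 windows of the same length, and lies across the start of the gene, with 4 bases before it and 4 after. The 30 bases around it, at chr9:64022045-64022074 on the minus strand, are printed with the palindrome in capitals.
Smad6 start: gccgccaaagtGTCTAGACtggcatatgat
The shorter SMAD element CAGAC, on either strand, was in the 250 bases before a start for 15 of the 28 genes (53.6%) and for 45.8% of all 27025 genes. The windows of Tgfb2 (chr1:186705990-186706239, minus strand) and Ltbp2 (chr12:84876492-84876741, minus strand) follow, since those genes divided the arrays in the same way, with CAGAC or its reverse complement in capitals. Each held it at 2 places.
Tgfb2 upstream: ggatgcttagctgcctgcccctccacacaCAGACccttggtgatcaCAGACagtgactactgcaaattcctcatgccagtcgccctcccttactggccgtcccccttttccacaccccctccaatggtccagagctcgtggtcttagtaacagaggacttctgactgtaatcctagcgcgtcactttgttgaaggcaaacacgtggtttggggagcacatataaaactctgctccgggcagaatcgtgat
Ltbp2 upstream: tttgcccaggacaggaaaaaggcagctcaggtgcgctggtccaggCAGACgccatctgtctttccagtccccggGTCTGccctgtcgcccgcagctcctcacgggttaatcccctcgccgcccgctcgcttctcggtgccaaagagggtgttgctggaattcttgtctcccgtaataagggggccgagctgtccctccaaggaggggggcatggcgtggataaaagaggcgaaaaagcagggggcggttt
The GC-rich element GGCGCC was in 8 of the 28 genes (28.6%) and in 10.8% of all genes, namely Bmpr1a, Bmpr2, Tgfbr1, Smad5, Id2, Tgfbi, Ltbp4 and Grem1. A match to these letters is a description of the window and not a binding site.

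Levels below are log2 signals set relative to the 75th percentile of each array's detected probes, so 0 is a bright probe and negative values are dimmer ones. Levels of different genes come from different probes and are not compared. Changes are differences of group means on the log2 scale with standard errors from a limma model, and a gene is called when its adjusted p over 12591 genes is under 0.05. "All months" is the mean of the 3 monthly means against sham.

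Features of the arrays run beside the results. Of the 3 slides the first carried 7 shams and 1 array of month 1, the second 3, 4 and 1 arrays of months 1, 2 and 3, and the third 3 shams and 1, 1 and 3 arrays of these months. Between 36.1% and 56.1% of probes were well above background on an array. In 8 pairs of arrays of 1 group, 6 of them on different slides, levels lay closer (0.074 to 0.20 log2 units, root mean square over 210 probes printed at least 5 times) than the median pair (0.46), although other pairs began at 0.19, with no clear gap. These are Sham 3, 4 and 10, Sham 1 and 5, Sham 7 and 9, and in PSPI month 1 arrays 1 and 5, month 2 arrays 1 and 5 and month 3 arrays 2 and 3. All 24 arrays were kept, and where averaging the close arrays (17 samples: 6, 4, 4 and 3) ended a call, that value stands beside it. Month 3 arrays 2 and 3 stood apart in fibroblast markers: the mean level of the 6 markers was -0.41 and -0.31 there and 0.10 to 0.98 on each other array. Results at month 3 and over all months were therefore also computed without these arrays, which leaves 2 at month 3, a choice made after their levels were seen. Ventricular muscle markers (5 of 5 kept) had mean levels of 5.04 to 6.92 over the arrays. Month 3 arrays 2 and 3 were the highest of all arrays in these (6.79 and 6.92, the next 6.44). The 4 atrial markers (Myl7, Sln, Myl4 and Nppa) ranged from -3.59 to 5.29 among shams, -1.55 to 4.15 at month 1, -0.43 to 2.83 at month 2 and -2.61 to -0.86 at month 3. Sham 3, 4 and 10 had the highest atrial values of all arrays (4.95 to 5.29), so calls were also made without them. Myh7, the slow myosin heavy chain gene that rises with load in the mouse heart, stood at 4.67 to 5.91 on 15 arrays (Sham 6 to 9, month 1 arrays 1 and 5 and all of months 2 and 3) and at 1.62 to 2.52 on the other 9. Slide 2 held no sham, and its month 1 arrays (2, 3 and 4) were at the lower Myh7 level. Month 1 arrays 1 and 5, on the other slides, were at the higher, so slide was partly tied to Myh7 level. The part of these features in the members' changes was not tested.

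Over all months 3 of 9 ligands and 2 of 4 latent binding proteins rose after PSPI, while the receptors and signal-transducing Smads that were called, 3 of 13, fell. Over all months 10 of 37 members were called (27.0%), 7 higher and 3 lower, beside 24.5% of all genes (10.9% higher and 13.6% lower). Tgfb1, Tgfb2, Ltbp2, Ltbp3, Inhba, Fstl3 and Smad6 rose, and Acvr1, Smad3 and Smad5 fell. The members' share is near that of all genes, so the count itself says nothing particular about the pathway. With close arrays averaged 3 members were called (8.11%, beside 6.3% of all genes): Tgfb1 and Smad6 higher and Smad5 lower. Slide as a block gave 9 higher and 2 lower (16.1% of all genes called). Without Sham 3, 4 and 10 there were 6 higher and 1 lower (15.5% of all genes), and without Sham 2 there were 6 calls in all. Leaving out month 3 arrays 2 and 3 gave 8 higher and 1 lower (19.4% of all genes), and Smad6 (0.49, adjusted p = 0.053), Acvr1 (-0.26, adjusted p = 0.052) and Smad3 (-0.24, adjusted p = 0.13) were not among them.

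**Figure D1:**
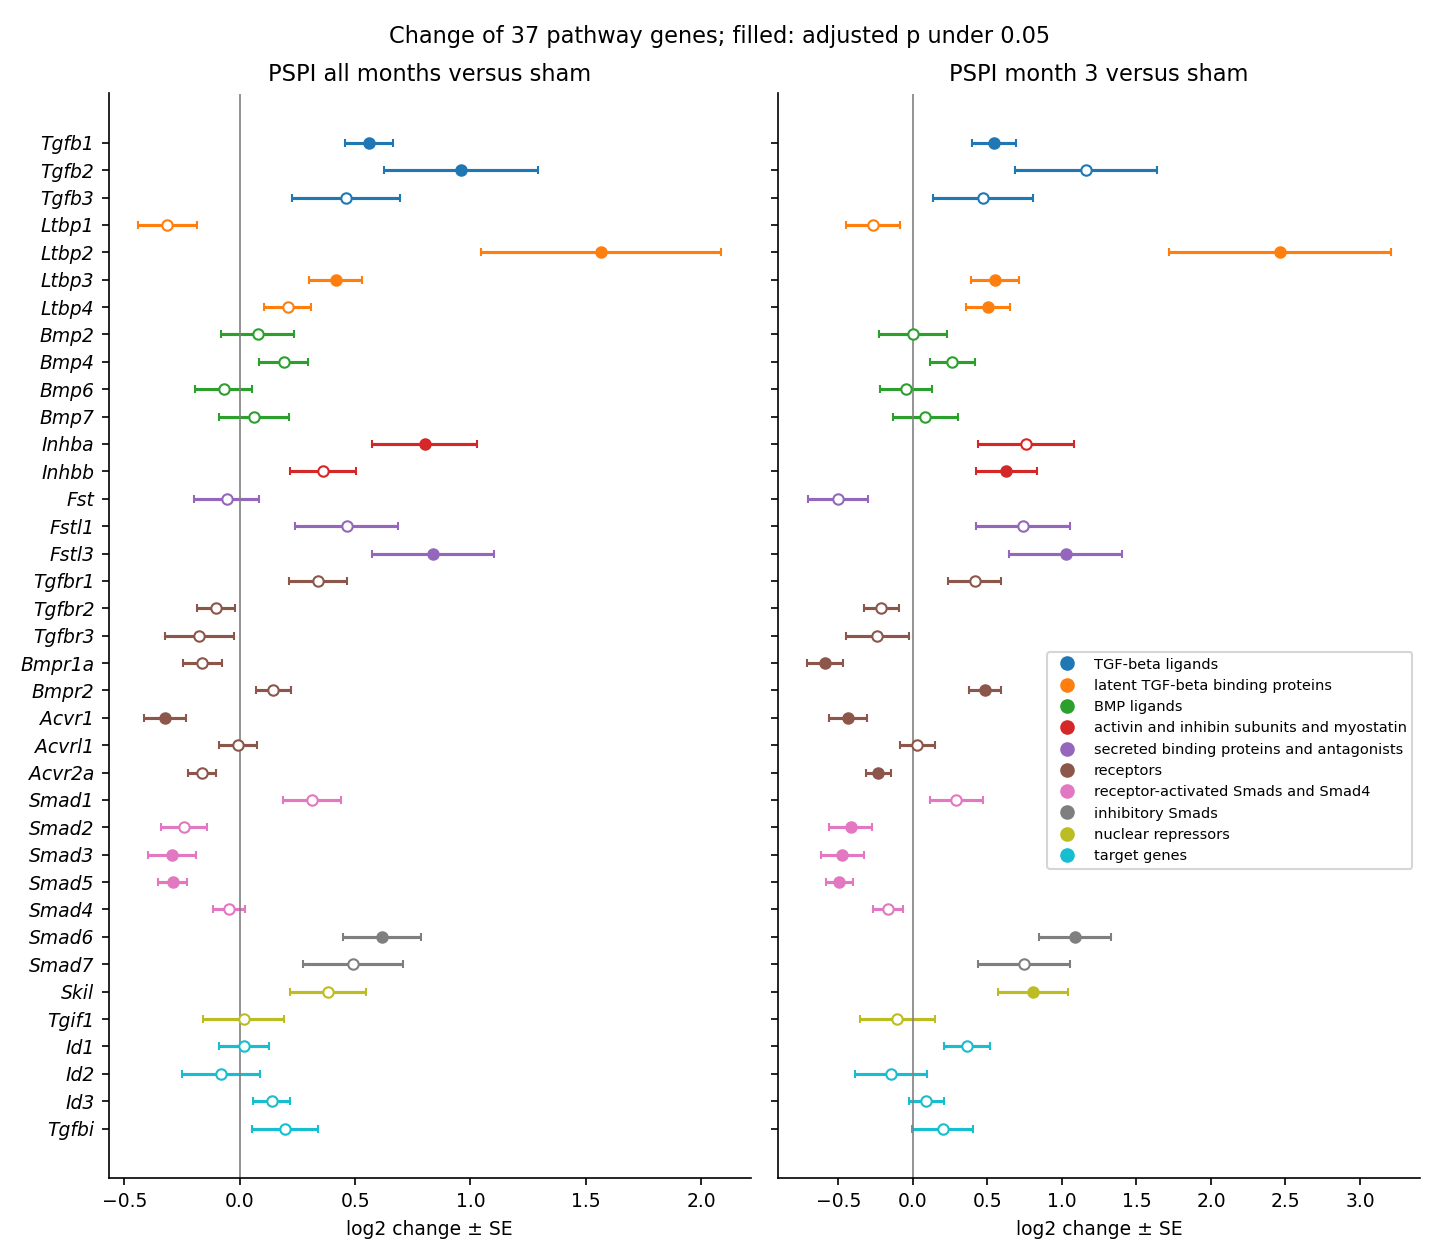
Log2 change (horizontal axis, with standard error) of the 37 tested members, coloured by role, over all months (left) and at month 3 (right) against 10 shams; filled points passed an adjusted p of 0.05. Ltbp2 stands farthest to the right in both panels (1.57 and 2.46), and the filled points among receptors and Smad2, Smad3 and Smad5 lie left of 0 except Bmpr2.

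Calls came late. At month 1, 0 of 37 members and 0% of all genes passed in limma, and 2 members, Tgfb1 and Id1, had an unadjusted p under 0.05. At month 2, 8 members passed (21.6%), 5 higher and 3 lower, beside 14.6% of all genes (6.41% higher and 8.16% lower). At month 3, 15 passed (40.5%), 9 higher and 6 lower, beside 38.9% of all genes (17.4% higher and 21.5% lower). Averaging close arrays left 0 calls at month 2 (14 at an unadjusted p under 0.05, and 0.0556% of all genes called) and 10 at month 3, 8 higher and 2 lower, beside 21.9% of all genes. The month 2 count was 5 without Sham 2 or Sham 5, 4 without month 2 array 3, 3 without array 4 or 5 and 1 without array 1. It was 4 without Sham 3, 4 and 10 (5.65% of all genes), where month 3 gave 14 (32.5% of all genes). Slide as a block gave 9 at month 2 (9.71% of all genes) and 14 at month 3 (32.0% of all genes). On slide 3 alone, with 3 shams, 0 members and 0% of all genes passed over all months (12 members at an unadjusted p under 0.05) and at month 2 (6 members). There 3 members passed at month 3 (13.3% of all genes): Smad6 higher, Bmpr1a and Smad3 lower. With month 3 arrays 2 and 3 left out, 8 members passed at month 3 (18.0% of all genes), 4 of them among the 15: Ltbp3, Inhbb and Skil higher and Smad5 lower. The other 4, all higher, were Tgfb2 (1.81, adjusted p = 0.044), Bmp4 (0.65, adjusted p = 0.0079), Inhba (1.23, adjusted p = 0.044) and Fstl1 (1.21, adjusted p = 0.042).

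The 9 ligands tested had a median change of 0.36 over all months, with 3 higher and 0 lower, against -0.012 for all genes. The 8 receptors had a median of -0.13, with 0 higher and 1 lower. The 7 targets (Id1, Id2, Id3, Tgfbi, Smad6, Smad7 and Skil) had a median of 0.20, with 1 higher and 0 lower. At month 3 these medians were 0.47, -0.22 and 0.36, and that of all genes was -0.036. They were 0.65, -0.072 and 0.29 without month 3 arrays 2 and 3, and over all months then 0.45, -0.060 and 0.23. Under the other scalings (percentile over all probes, quantile, normexp and the deposited table) the medians over all months kept their signs: ligands 0.28 to 0.35, receptors -0.20 to -0.053 and targets 0.13 to 0.20. Those scalings moved the median of all genes at month 3 to between -0.20 and 0.11, and the balance of calls with it: over all months the members called were 6 higher and 6 lower, 7 and 5, 11 and 3, and 11 and 2 in that order, and at month 3 6 and 9, 7 and 7, 13 and 4, and 14 and 4. Of all genes called over all months, 44.6% were higher in the scaling used here and 25.1%, 32.1%, 61.7% and 62.8% in the others. At month 3 these shares were 44.7%, then 22.9%, 30.2%, 63.8% and 65.9%, at month 2 44.0%, then 36.1%, 41.0%, 54.4% and 53.9%, and for month 3 against month 2 48.7%, then 25.5%, 31.1%, 61.0% and 63.3%.

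**Figure D2:**
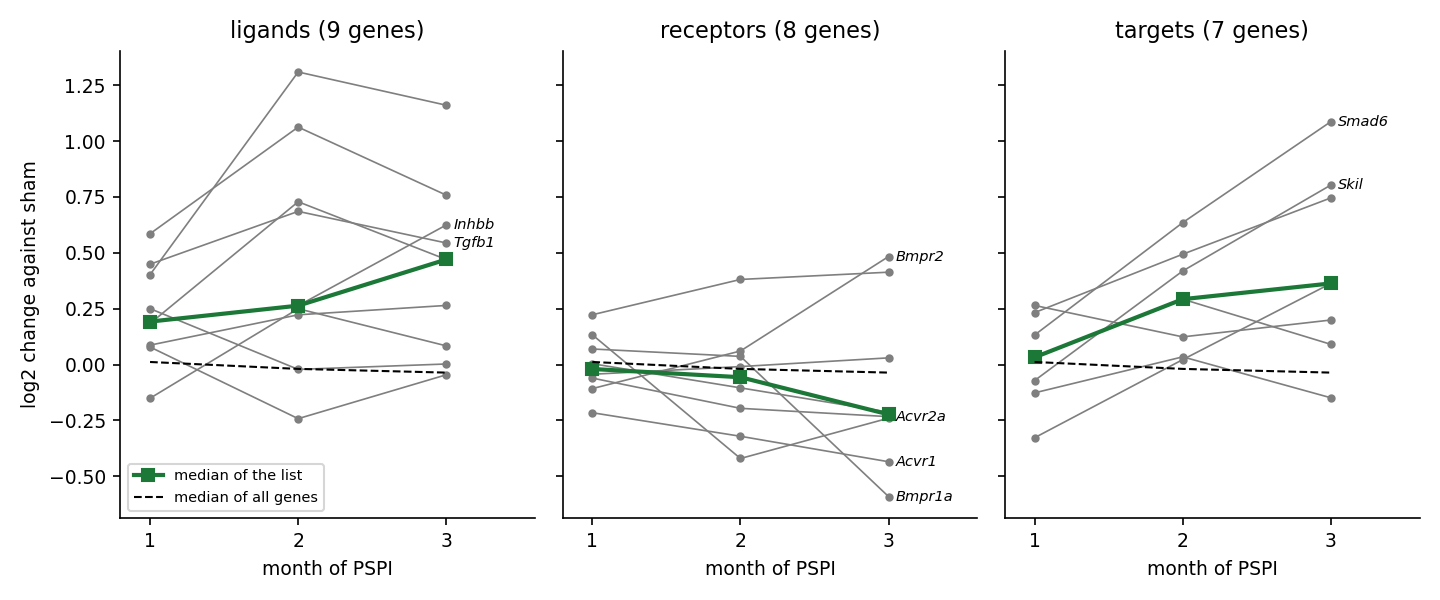
Log2 change against sham (vertical axis) at months 1, 2 and 3 for the tested ligands, receptors and targets; grey lines are genes, green squares the list's median, the dashed line the median of all genes, and names mark genes called at month 3. The ligand median lies at 0.19, 0.26 and 0.47, the receptor median at -0.020, -0.056 and -0.22, and the target median at 0.033, 0.29 and 0.36.

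Among the TGF-beta ligands, Tgfb1, the form most widely made by immune and stromal cells, rose 1.47-fold over all months. Its level ran from -3.84 to -3.09 (median -3.49) in the 10 shams and was -2.94, -3.14, -2.83, -2.98 and -3.31 in the month 1 arrays. At month 2 it was -2.62, -3.17, -2.73, -2.61 and -2.88, and at month 3 -3.24, -2.79, -3.12 and -2.62. In 9 of 14 PSPI arrays Tgfb1 lay above every sham, and the other 5 lay within the sham range. Its change was 0.56 ± 0.10 (adjusted p = 0.00075) over all months, 0.45 ± 0.14 (adjusted p = 0.17) at month 1, 0.69 ± 0.14 (adjusted p = 0.0042) at month 2 and 0.54 ± 0.15 (adjusted p = 0.0058) at month 3. Averaging close arrays kept the call over all months (0.58, adjusted p = 0.017) and at month 3 (0.56, adjusted p = 0.029) but not at month 2 (0.69, adjusted p = 0.064). Without month 3 arrays 2 and 3 the month 3 change was as large and not called (0.56, adjusted p = 0.053).

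Tgfb2, a ligand made in the developing heart and by muscle cells, was 1.94-fold higher over all months and had a far wider spread. Shams fell into separate ranges: Sham 6, 7, 8 and 9 lay from -0.25 to 0.26 and the other 6 shams from -1.96 to -1.60. At month 1 its level was 0.54, -1.41, -1.38, -1.60 and 0.42, so that arrays 1 and 5 lay above every sham and arrays 2, 3 and 4 at or just above the 6 low shams. It was 0.59, -0.065, 0.17, -0.18 and 0.57 at month 2 and 0.92, -0.59, -0.57 and 0.53 at month 3. No array of months 2 or 3 reached down to the 6 low shams, and 6 of the 14 PSPI arrays lay above every sham. The change was 0.96 ± 0.33 (adjusted p = 0.040) over all months, 1.31 ± 0.44 (adjusted p = 0.048) at month 2 and 1.16 ± 0.48 (adjusted p = 0.057) at month 3. The month 3 change passed with slide as a block (1.63, adjusted p = 0.034).

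The calls of Tgfb2 depend on single arrays. Over all months the call was lost when any 1 of 13 arrays was left out (Sham 1 to 5 and 10, month 1 arrays 1 and 5, month 2 arrays 1, 3 and 5, month 3 arrays 1 and 4, adjusted p 0.051 to 0.075), and at month 2 when any 1 of 14 was (adjusted p 0.05002 to 0.13), namely Sham 1 to 5 and 10, month 1 arrays 2 and 3, month 2 arrays 1 to 5 and month 3 array 3. Averaging close arrays gave 0.72 (adjusted p = 0.25) over all months and 1.04 (adjusted p = 0.25) at month 2. A second kept probe of Tgfb2 gave 0.55 ± 0.24 over all months (adjusted p = 0.098 over 21037 probes).

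Tgfb3, which in adult tissue acts much like Tgfb1, was not called in any comparison with all arrays and no block. It ran from -1.004 to 0.47 (median -0.31) in the 10 shams, and was 0.86, -0.48, -0.51, -0.83 and 0.64 at month 1. The month 2 arrays gave 0.98, 0.22, 0.42, 0.031 and 0.76 and the month 3 arrays 0.90, -0.34, -0.35 and 0.68. The groups overlapped at every month, and the change over all months was 0.46 ± 0.23 (adjusted p = 0.15). With a replicate block it passed over all months (0.92, adjusted p = 0.016). So it did at month 2 (1.17, adjusted p = 0.014) and at month 3 (0.97, adjusted p = 0.033). Only shams carry the replicate numbers 6 to 10, so this block leaves Sham 1 to 5 as the only shams compared. Sham 1 to 5 were all at the lower Myh7 level.

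**Figure D3:**
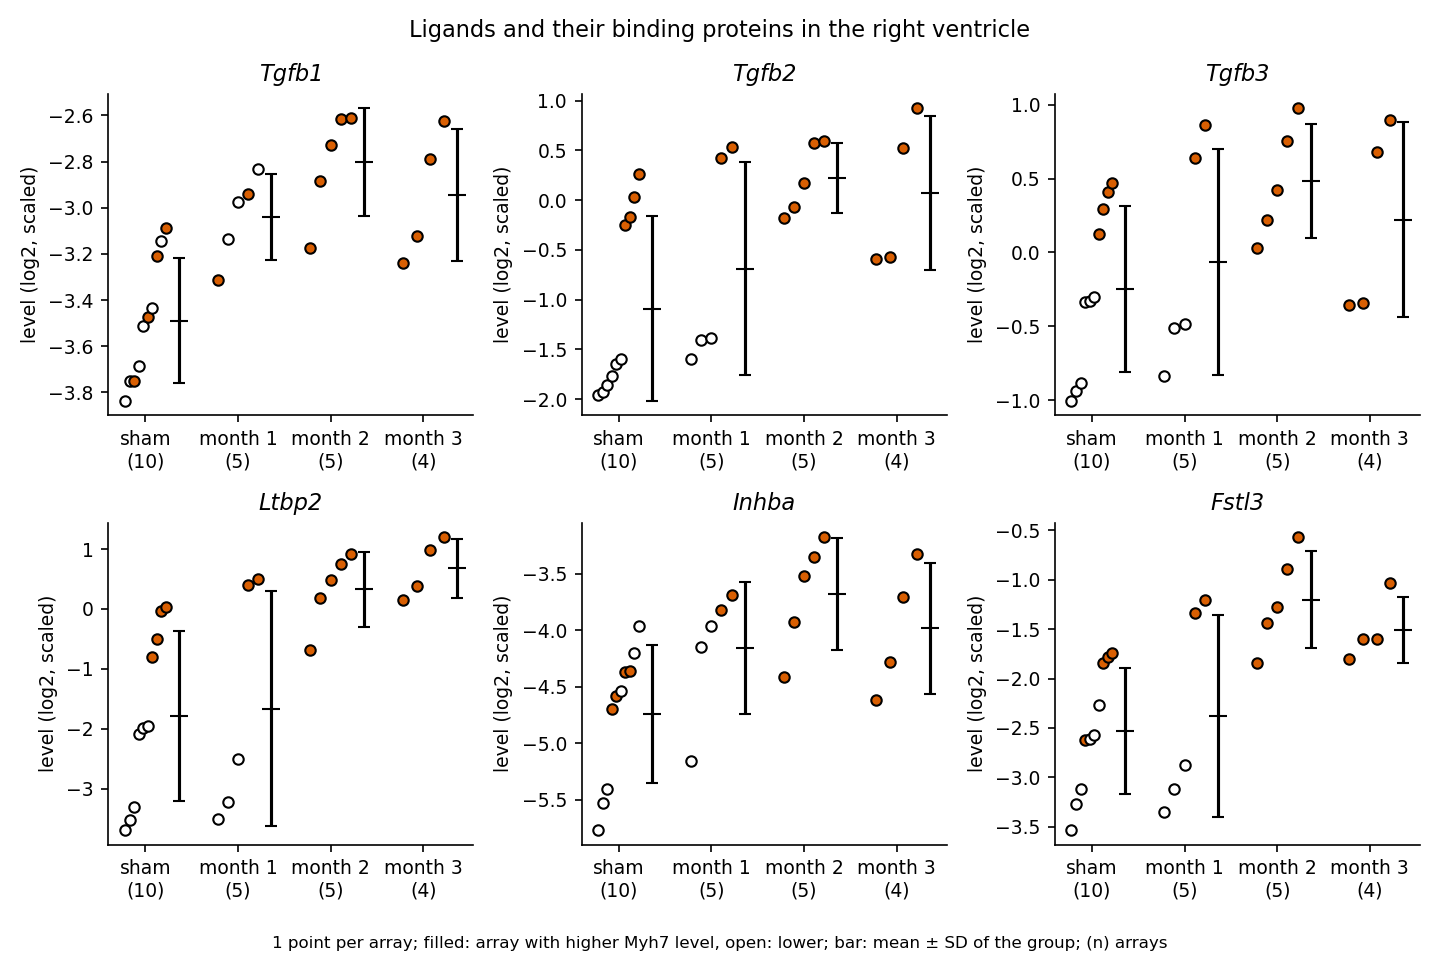
Scaled log2 level (vertical axis) of 3 TGF-beta ligands, the latent binding protein Ltbp2, the activin subunit Inhba and the activin-binding Fstl3 on each array, by group; bars are group mean ± SD, and filled points are the 15 arrays with a higher Myh7 level. For Tgfb2 and Ltbp2 all filled points lie above all open points, in shams and month 1 alike, whereas for Tgfb1 filled and open points mix.

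Of the 4 latent TGF-beta binding proteins, 2 rose over all months and 3 at month 3. Ltbp2, an LTBP that sits on elastic fibres and does not itself carry TGF-beta, had the largest change of any member at month 3, 5.51-fold. Its level ran from -3.69 to 0.031 (median -1.97) in the 10 shams and was 0.40, -2.50, -3.50, -3.22 and 0.51 at month 1. The month 2 arrays gave 0.74, 0.18, 0.49, -0.69 and 0.91. Those of month 3, at 0.98, 0.15, 0.39 and 1.19, all lay above every sham. Changes were 1.57 ± 0.52 (adjusted p = 0.032) over all months, 2.11 ± 0.69 (adjusted p = 0.042) at month 2 and 2.46 ± 0.74 (adjusted p = 0.013) at month 3. Close arrays averaged gave 1.31 (adjusted p = 0.19) over all months, 1.91 (adjusted p = 0.18) at month 2 and 2.52 (adjusted p = 0.046) at month 3. The month 3 value was 2.87 (adjusted p = 0.053) without month 3 arrays 2 and 3. Leaving out Sham 1, 2, 3, 4 or 5 ended the call over all months (adjusted p 0.0502 to 0.067), as did leaving out 1 of 11 arrays at month 2 (Sham 1 to 5 and 10 and month 2 arrays 1 to 5, adjusted p 0.051 to 0.11).

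Ltbp3 and Ltbp4, which do carry latent TGF-beta (Ltbp4 chiefly the Tgfb1 form), had smaller and tighter changes. Ltbp3 ran from -0.85 to -0.17 (median -0.37) in the 10 shams, and at month 3 stood at 0.37, -0.22, -0.089 and 0.39, with 3 of the 4 above every sham. It was 0.32, -0.24, -0.57, -0.47 and 0.25 at month 1 and 0.068, -0.11, -0.031, -0.26 and 0.17 at month 2. Its change was 0.42 ± 0.11 (adjusted p = 0.012) over all months and 0.55 ± 0.16 (adjusted p = 0.011) at month 3, and without month 3 array 4 the later call was lost (adjusted p = 0.053), as it was with the percentile over all probes (0.39, adjusted p = 0.051). Averaging close arrays gave 0.43 (adjusted p = 0.066) over all months. At month 2 Ltbp3 was not called (0.40 ± 0.15, adjusted p = 0.071). It passed there with slide as a block (0.68, adjusted p = 0.046) and with its kept probes averaged (0.47, adjusted p = 0.026). A replicate block (0.54, adjusted p = 0.045) and a fit of only the groups compared (0.40, adjusted p = 0.032) also called it. A second probe gave 0.45 ± 0.10 over all months (adjusted p = 0.0037 over 21037 probes) and 0.54 ± 0.14 at month 2 (adjusted p = 0.014).

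Ltbp4 ran from 2.49 to 3.17 (median 2.85) in the 10 shams and stood at 3.18, 3.30, 3.23 and 3.59 at month 3, where all 4 arrays lay above every sham. At months 1 and 2 its ranges, 2.47 to 3.17 and 2.59 to 3.20, overlapped those of the shams. It rose at month 3 (0.50 ± 0.15, adjusted p = 0.0094), and under quantile normalization that call was lost (0.41, adjusted p = 0.053), as it was without month 3 arrays 2 and 3 (0.56, adjusted p = 0.053). Its second probe was called already at month 2 (0.59 ± 0.13, adjusted p = 0.0069 over 21037 probes), where the brighter probe gave 0.13. Both probes had the same sign at months 2 and 3.

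Ltbp1, the most studied carrier of latent TGF-beta, went the other way. Levels ran from -2.25 to -1.02 (median -1.38) in the 10 shams, were -2.08, -1.35, -1.43, -1.32 and -1.58 at month 1 and -2.27, -1.92, -1.91, -2.47 and -2.09 at month 2. At month 3 it was -1.85, -1.75, -1.85 and -1.63. Ltbp1 fell at month 2 (-0.63 ± 0.17, adjusted p = 0.018) and was not called over all months (-0.31 ± 0.13, adjusted p = 0.074), although it passed there with slide as a block (-0.57, adjusted p = 0.034). The month 2 call ended with close arrays averaged (-0.58, adjusted p = 0.11), without month 2 array 1 or 4 (adjusted p 0.058 to 0.059) and without Sham 3, 4 and 10 (-0.51, adjusted p = 0.081).

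BMP ligands gave no call. Bmp2, Bmp4, Bmp6 and Bmp7, which act in valve, vessel and conduction tissue development, changed by -0.070 (Bmp6) to 0.19 (Bmp4) over all months, with adjusted p of 0.19 (Bmp4) to 0.79 (Bmp7). The 95% interval of Bmp2 was -0.25 to 0.41 and that of Bmp4 -0.029 to 0.41. For Bmp6 it was -0.32 to 0.19 and for Bmp7 -0.25 to 0.38. At month 3 the 4 changes ran from -0.046 to 0.26. Bmp4 was called without month 3 arrays 2 and 3, at month 3 (0.65, adjusted p = 0.0079) and over all months (0.32, adjusted p = 0.019).

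Of the activin subunits Inhba rose over all months and Inhbb at month 3. Inhba encodes the subunit of activin A and rose 1.74-fold over all months. Levels ran from -5.77 to -3.96 (median -4.56) in the 10 shams, 9 of them well above background, and were -3.82, -4.15, -5.16, -3.96 and -3.69 at month 1. They were -3.35, -3.93, -3.52, -4.41 and -3.18 at month 2 and at month 3 -3.71, -4.28, -4.62 and -3.33. In 8 of 14 PSPI arrays Inhba exceeded every sham. Changes were 0.80 ± 0.23 (adjusted p = 0.014) over all months, 1.06 ± 0.30 (adjusted p = 0.022) at month 2 and 0.76 ± 0.32 (adjusted p = 0.067) at month 3. Averaging close arrays gave 0.87 (adjusted p = 0.067) over all months and 1.04 (adjusted p = 0.12) at month 2. Leaving out month 2 array 1, 3 or 5 ended the month 2 call (adjusted p 0.056 to 0.075). Without month 3 arrays 2 and 3 the month 3 change was called (1.23, adjusted p = 0.044). So it was under normexp (0.74, adjusted p = 0.00051), in the deposited table (0.77, adjusted p = 0.00040) and without Sham 3, 4 and 10 (0.98, adjusted p = 0.030).

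Inhbb, the subunit of activin B, was called at month 3 and not in the other comparisons with sham. It ran from -4.39 to -3.08 (median -3.83) in the 10 shams, and from -3.75 to -3.11 and -3.65 to -3.36 at months 1 and 2. The month 3 arrays were at -2.79, -3.48, -3.37 and -2.98, with 2 of 4 above every sham and the others inside the sham range. The month 3 change was 0.62 ± 0.20 (adjusted p = 0.020) and with close arrays averaged 0.79 (adjusted p = 0.015). Leaving out month 3 array 1 or 4 ended it (adjusted p 0.063 to 0.074), as did the percentile over all probes (0.46, adjusted p = 0.065) and quantile normalization (0.46, adjusted p = 0.066). Without Sham 3, 4 and 10 Inhbb was also called over all months (0.62, adjusted p = 0.0017), as it was without month 3 arrays 2 and 3 (0.45, adjusted p = 0.044).

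Of the secreted binding proteins, Fstl3, which captures activins and myostatin, rose and Fst and Fstl1 were not called in the fit used here. Fstl3 ran from -3.53 to -1.75 (median -2.59) in the 10 shams and was -1.21, -2.87, -3.35, -3.12 and -1.34 at month 1. Month 2 gave -0.89, -1.28, -1.44, -1.85 and -0.57 and month 3 -1.03, -1.81, -1.60 and -1.60. As with Tgfb2, arrays 1 and 5 of month 1 lay above every sham and its arrays 2, 3 and 4 among the lower shams. Its change was 0.84 ± 0.26 (adjusted p = 0.025) over all months, 1.33 ± 0.35 (adjusted p = 0.016) at month 2 and 1.02 ± 0.38 (adjusted p = 0.036) at month 3. For the same 3 comparisons, averaging close arrays gave 0.76 (adjusted p = 0.14), then 1.25 (adjusted p = 0.11) and 1.13 (adjusted p = 0.077). The call ended over all months without Sham 2 (adjusted p = 0.054), at month 2 without its array 1 or 5 (adjusted p 0.051 to 0.056) and at month 3 without any 1 of 7 arrays (Sham 1, 2 and 5 and all 4 of month 3, adjusted p 0.053 to 0.10). Fstl1, a secreted protein of fibroblasts, changed by 0.46 ± 0.22 (adjusted p = 0.13) over all months, and without month 3 arrays 2 and 3, where fibroblast markers were low, it was called at month 3 (1.21, adjusted p = 0.042). Without those arrays Fstl3 was not (1.22, adjusted p = 0.10). Fst, or follistatin, the main activin antagonist, changed by -0.50 ± 0.20 (adjusted p = 0.052) at month 3, where 2 of its 4 arrays were well above background. It passed there as lower with the percentile over all probes (-0.66, adjusted p = 0.011) and under quantile normalization (-0.93, adjusted p = 0.0023).

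Receptors of the TGF-beta branch were not called in the fit used here, though Tgfbr1, Tgfbr2 and Tgfbr3 each passed in some other setting. Tgfbr1, the type I receptor that phosphorylates Smad2 and Smad3, ran from -3.69 to -2.70 (median -2.98) in the 10 shams and was -2.35, -2.94, -3.22, -3.13 and -2.36 at month 1. It was -2.24, -2.74, -2.76, -3.10 and -2.37 at month 2 and -2.51, -2.61, -2.85 and -2.47 at month 3. Over all months it changed by 0.34 ± 0.13 (adjusted p = 0.053), just short of the threshold, and it passed with slide as a block (0.52, adjusted p = 0.046). It also passed there under normexp (0.35, adjusted p = 0.0069) and in the deposited table (0.36, adjusted p = 0.0063). A filter for detection on all arrays (0.34, adjusted p = 0.0495) and a replicate block (0.52, adjusted p = 0.036) called it too. Normexp and the deposited table called it at month 2 (adjusted p = 0.032 in each) and month 3 (adjusted p = 0.0090 and 0.0072). Tgfbr2, the type II receptor that binds the ligand first, ran from -0.19 to 0.34 (median 0.11) in the 10 shams and from -0.14 to 0.21, -0.29 to 0.26 and -0.37 to 0.084 at months 1, 2 and 3. The groups overlapped throughout. Its change over all months was -0.10 ± 0.082 (adjusted p = 0.36), with a 95% interval of -0.27 to 0.065, and a second, uncalled probe had the opposite sign (0.16 ± 0.17). At month 3 Tgfbr2 changed by -0.21 ± 0.12 (adjusted p = 0.15), and with the percentile over all probes it passed as lower (-0.37, adjusted p = 0.0098). Tgfbr3, the co-receptor betaglycan, changed by -0.18 ± 0.15 (adjusted p = 0.40), and with slide as a block it passed at month 2 (-0.88, adjusted p = 0.042).

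BMP receptors parted at month 3. Bmpr1a, a type I BMP receptor, ran from -1.47 to -0.85 (median -1.31) in the 10 shams, -1.32 to -1.06 at month 1 and -1.49 to -1.02 at month 2. The month 3 arrays were at -1.41, -2.10, -2.15 and -1.83, and 3 of the 4 lay below every sham. Bmpr1a fell at month 3 (-0.59 ± 0.12, adjusted p = 0.00060) and was not called over all months (-0.16 ± 0.084, adjusted p = 0.16). The month 3 call held with close arrays averaged (-0.54, adjusted p = 0.019), with slide as a block (-0.54, adjusted p = 0.010) and on slide 3 alone (-0.68, adjusted p = 0.031). Arrays 2 and 3 were the lowest, and without both the change shrank to -0.34 (adjusted p = 0.090) and the call ended.

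Bmpr2, the type II BMP receptor whose loss-of-function variants cause heritable pulmonary hypertension in people, moved the opposite way. It ran from -1.57 to -0.95 (median -1.39) in the 10 shams, -1.67 to -1.27 at month 1 and -1.46 to -1.06 at month 2. The month 3 arrays were at -1.09, -0.58, -0.87 and -0.98, with 2 of 4 above every sham. The highest sham was Sham 1 (-0.95) and the next -1.24. Bmpr2 rose at month 3 (0.48 ± 0.11, adjusted p = 0.0015), also with close arrays averaged (0.44, adjusted p = 0.018) but not without month 3 arrays 2 and 3, its highest (0.33, adjusted p = 0.090), and was not called over all months (0.15 ± 0.076, adjusted p = 0.16).

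Acvr1, a type I receptor used by BMPs, fell over all months (-0.32 ± 0.090, adjusted p = 0.012) and at month 3 (-0.43 ± 0.13, adjusted p = 0.011). Levels ran from -0.43 to 0.23 (median -0.023) in the 10 shams, were -0.12, -0.18, -0.37, -0.60 and -0.044 at month 1 and -0.28, -0.45, -0.46, -0.52 and -0.14 at month 2. Month 3 gave -0.24, -0.81, -0.54 and -0.34. In 6 of 14 PSPI arrays Acvr1 lay below every sham. Neither call held with close arrays averaged (-0.29, adjusted p = 0.086 over all months, -0.33, adjusted p = 0.10 at month 3) or with slide as a block (-0.24, adjusted p = 0.23 and -0.38, adjusted p = 0.074). Without month 3 array 2 the month 3 call was lost too (adjusted p = 0.076), and without arrays 2 and 3 it was -0.24 (adjusted p = 0.30). A second probe of Acvr1 had the same sign over all months and was not called (-0.25 ± 0.13, adjusted p = 0.18 over 21037 probes).

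Acvr2a, a type II receptor for activins and BMPs, was lower at month 3 (-0.23 ± 0.086, adjusted p = 0.036). Levels ran from -4.15 to -3.69 (median -3.97) in the 10 shams, -4.23 to -3.93 at month 1, -4.29 to -4.07 at month 2 and -4.01, -4.47, -4.17 and -4.16 at month 3. The sign of that call turned under normexp (0.11) and in the deposited table (0.16), and with close arrays averaged it was -0.23 (adjusted p = 0.12). With slide as a block it was -0.22 (adjusted p = 0.12), and without month 3 arrays 2 and 3 -0.12 (adjusted p = 0.45). Leaving out Sham 2 or 5 or month 3 array 2, 3 or 4 also ended it (adjusted p 0.051 to 0.22). Acvrl1, the type I receptor of endothelium, changed by -0.0073 ± 0.084 (adjusted p = 0.96) over all months (95% interval -0.18 to 0.17).

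**Figure D4:**
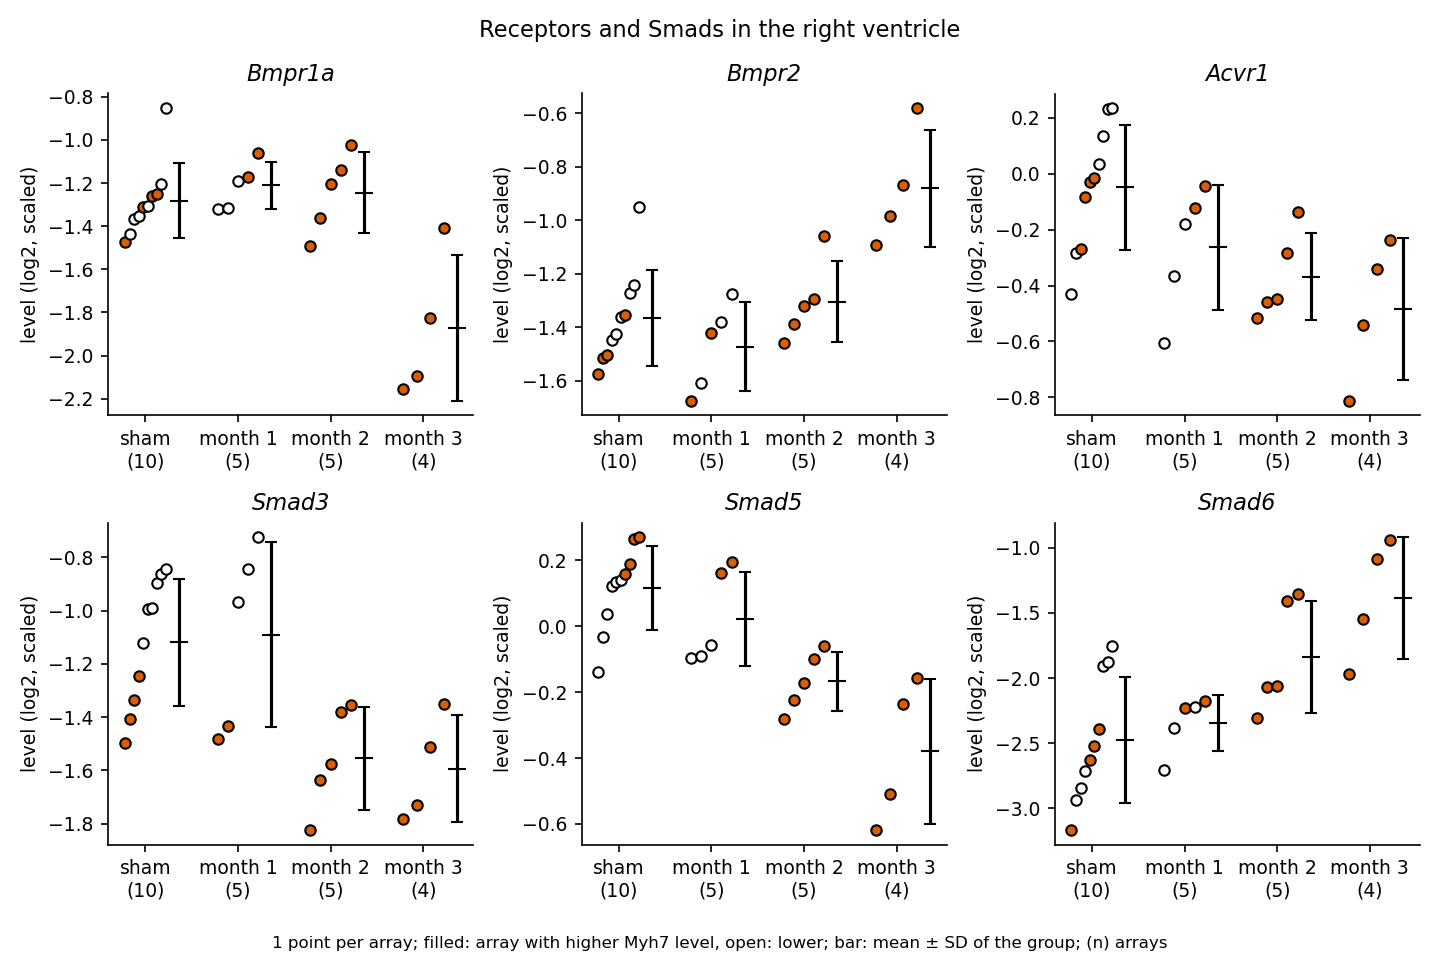
Scaled log2 level (vertical axis) of 3 receptors and 3 Smads on each array by group, drawn as in the plot of ligands. At month 3 Bmpr1a and Smad5 sit low and Bmpr2 and Smad6 high, and for Smad5 all 4 month 3 arrays lie below all 10 shams.

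Signal-transducing Smads that changed were lower. Smad5, which carries BMP signals, ran from -0.14 to 0.27 (median 0.14) in the 10 shams and was 0.16, -0.097, -0.091, -0.058 and 0.19 at month 1. The month 2 arrays gave -0.17, -0.059, -0.22, -0.28 and -0.099. All 4 month 3 arrays, at -0.16, -0.51, -0.62 and -0.24, lay below every sham. It changed by -0.29 ± 0.063 (adjusted p = 0.0029) over all months, -0.28 ± 0.084 (adjusted p = 0.028) at month 2 and -0.49 ± 0.090 (adjusted p = 0.00024) at month 3. Averaging close arrays, Smad5 passed over all months (-0.30, adjusted p = 0.035) and at month 3 (-0.45, adjusted p = 0.0094) and not at month 2 (-0.31, adjusted p = 0.11). With slide as a block it passed at month 3 (-0.44, adjusted p = 0.0062) and not over all months (-0.22, adjusted p = 0.11) or at month 2 (-0.20, adjusted p = 0.30). Without month 3 arrays 2 and 3, its lowest, the month 3 change was smaller and still called (-0.31, adjusted p = 0.044). The month 2 call was also lost without month 2 array 1, 3 or 4 (adjusted p 0.070 to 0.077).

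Smad3, the transducer of TGF-beta and activin most tied to fibrosis, ran from -1.50 to -0.85 (median -1.06) in the 10 shams and was -1.48, -0.73, -0.84, -0.97 and -1.43 at month 1. It was -1.58, -1.35, -1.38, -1.82 and -1.64 at month 2 and -1.35, -1.78, -1.73 and -1.51 at month 3. Sham 6 to 9 made up the lower end of the shams and overlapped months 2 and 3. Smad3 fell over all months (-0.29 ± 0.10, adjusted p = 0.040), at month 2 (-0.44 ± 0.14, adjusted p = 0.034) and at month 3 (-0.47 ± 0.15, adjusted p = 0.014). None of these passed after averaging close arrays: they were then -0.20 (adjusted p = 0.34), -0.38 (adjusted p = 0.20) and -0.38 (adjusted p = 0.14). Slide as a block, partly tied to Myh7 level, made them larger (-0.56, adjusted p = 0.0093 over all months, -0.64, adjusted p = 0.0040 at month 3). On slide 3 alone month 3 gave -0.60 (adjusted p = 0.045). The call over all months ended without any 1 of 13 arrays (Sham 1 to 5 and 10, month 1 arrays 1 and 5, month 2 arrays 1, 4 and 5, month 3 arrays 2 and 3, adjusted p 0.054 to 0.079). The month 2 call ended without Sham 2, 3, 4, 5 or 10 or month 2 array 1, 4 or 5 (adjusted p 0.052 to 0.10), and the month 3 call without month 3 array 2 or 3 (adjusted p 0.054 to 0.063) or both (-0.31, adjusted p = 0.26).

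Smad2, which shares receptors with Smad3, was lower at month 3 (-0.42 ± 0.14, adjusted p = 0.025). It ran from -4.08 to -3.44 (median -3.80) in the 10 shams, -4.07 to -3.42 at month 1, -4.40 to -3.63 at month 2 and -3.87, -4.50, -4.31 and -4.09 at month 3, with 3 of the 4 below every sham. In the deposited table the sign turned (0.026, adjusted p = 0.85), and with close arrays averaged it was -0.35 (adjusted p = 0.13). With slide as a block it was -0.41 (adjusted p = 0.070). The call was lost without month 3 array 2 or 3 (adjusted p 0.082 to 0.13) or both (-0.21, adjusted p = 0.45). Smad4, the common partner, changed by -0.045 ± 0.070 (adjusted p = 0.66) over all months, and Smad1, well above background on 17 of 24 arrays, by 0.31 ± 0.12 (adjusted p = 0.069).

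Of the inhibitory Smads, Smad6 rose, and Smad7 was not called in the fit used here but passed in other settings. Smad6, which blocks BMP receptors and Smad1, rose 2.12-fold at month 3. It ran from -3.17 to -1.76 (median -2.57) in the 10 shams and was -2.17, -2.22, -2.70, -2.38 and -2.23 at month 1. It was -1.36, -2.06, -2.30, -2.07 and -1.41 at month 2 and -1.97, -0.95, -1.09 and -1.55 at month 3, where 3 of 4 arrays lay above every sham. Changes were 0.62 ± 0.17 (adjusted p = 0.012) over all months, 0.64 ± 0.22 (adjusted p = 0.058) at month 2 and 1.09 ± 0.24 (adjusted p = 0.0014) at month 3. The month 3 call held with close arrays averaged (1.12, adjusted p = 0.0085), with slide as a block (1.14, adjusted p = 0.0048) and on slide 3 alone (1.23, adjusted p = 0.035), and without Sham 3, 4 and 10 the change over all months was 0.89 (adjusted p = 0.0011). Arrays 2 and 3 were the highest of month 3, and without both the call ended (0.72, adjusted p = 0.11), as did that over all months (0.49, adjusted p = 0.053). Smad7, which blocks TGF-beta receptors, ran from -4.77 to -3.16 (median -3.93) in the 10 shams and was -3.16, -3.86, -4.59, -3.85 and -2.80 at month 1. It was -3.11, -3.17, -3.95, -3.96 and -2.75 at month 2 and -3.26, -2.80, -3.07 and -3.43 at month 3, and the groups overlapped. It was not called over all months (0.49 ± 0.22, adjusted p = 0.10) or at month 3 (0.75 ± 0.31, adjusted p = 0.061), and without Sham 3, 4 and 10 it passed at month 3 (0.93, adjusted p = 0.033). Under normexp it passed over all months (0.46, adjusted p = 0.018) and at month 3 (0.68, adjusted p = 0.010). So it did in the deposited table (0.47, adjusted p = 0.019 and 0.69, adjusted p = 0.010). A replicate block (1.10, adjusted p = 0.030) and a fit of only the groups compared (0.75, adjusted p = 0.049) passed at month 3.

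Skil, a nuclear repressor of Smad-driven genes that TGF-beta itself induces, rose at month 3. It ran from -2.90 to -1.84 (median -2.49) in the 10 shams and was -1.94, -2.91, -3.28, -2.66 and -1.83 at month 1. Month 2 gave -1.77, -1.84, -2.09, -2.71 and -1.75, and all 4 month 3 arrays, at -1.72, -1.76, -1.83 and -1.29, lay above every sham. The month 3 change was 0.80 ± 0.24 (adjusted p = 0.010), and 0.88 (adjusted p = 0.036) with close arrays averaged. It was 0.95 (adjusted p = 0.043) without month 3 arrays 2 and 3. Over all months Skil was not called (0.38 ± 0.17, adjusted p = 0.092), but it passed with slide as a block (0.69, adjusted p = 0.037). Normexp (0.41, adjusted p = 0.019), the deposited table (0.41, adjusted p = 0.018) and a replicate block (0.65, adjusted p = 0.028) called it there. Tgif1, another Smad corepressor, changed by 0.017 ± 0.17 (adjusted p = 0.96) over all months.

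The Id genes, direct targets of BMP signalling that restrain differentiation factors, were not called in any comparison with all arrays and no block. Id1 ran from -0.49 to 0.044 (median -0.37) in the 10 shams, and -0.38, -1.05, -0.66, -0.78 and -0.18 at month 1, where 3 of 5 arrays lay below every sham (-0.33 ± 0.14, adjusted p = 0.36). Month 2 gave -0.32, 0.021, -0.36, -0.57 and -0.089 and month 3 -0.46, 0.18, 0.23 and 0.37, where 3 of 4 lay above every sham (0.36 ± 0.16, adjusted p = 0.068). So Id1 stood lower than sham at month 1 and higher at month 3, neither beyond the threshold. With slide as a block the month 3 change of Id1 passed (0.42, adjusted p = 0.034), and without month 3 arrays 2 and 3 it was 0.24 (adjusted p = 0.44).

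Id2 ran from -2.17 to -0.87 (median -1.57) in the 10 shams, and -2.28 to -1.15, -1.85 to -1.28 and -1.90 to -1.13 at months 1, 2 and 3, all overlapping the shams (-0.080 ± 0.17, adjusted p = 0.76 over all months). Id3 ran from -0.037 to 0.46 (median 0.33) in the 10 shams, and 0.70, 0.025, 0.29, 0.014 and 0.49 at month 1, 0.72, 0.55, 0.56, 0.49 and 0.51 at month 2 and 0.55, 0.40, 0.33 and 0.18 at month 3. All 5 month 2 arrays of Id3 lay above every sham, yet the change was small and missed the threshold (0.29 ± 0.11, adjusted p = 0.065). It passed there in a fit of only the groups compared (0.29, adjusted p = 0.036) and with a replicate block (0.39, adjusted p = 0.030). Tgfbi, a matrix protein named for its induction by TGF-beta, ran from -0.74 to 0.47 (median -0.24) in the 10 shams, and -0.21 to 0.37, -0.38 to 0.19 and -0.087 to 0.24 at months 1, 2 and 3. The shams alone spanned more than the PSPI groups (0.20 ± 0.14, adjusted p = 0.32 over all months). Sham 3, 4 and 10 were its highest shams, and without them Tgfbi passed over all months (0.45, adjusted p = 0.016).

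Counting members whose groups did not overlap, 0 of 37 parted all PSPI arrays from all shams (0.0397% of all genes did). At month 2 it was Id3 alone (3.35% of genes), and at month 3 Ltbp2, Ltbp4 and Skil, higher, and Smad5, lower (12.5% of genes).

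Some members followed the division of the arrays by Myh7, which the labels do not give and which is described with no test. Of the 37 members 4 divided the 9 and the 15 arrays without overlap, beside 576 of 12591 genes (4.58%). Tgfb2 ran from -1.96 to -1.38 on the 9 arrays and from -0.59 to 0.92 on the 15. Ltbp2 ran from -3.69 to -1.95 and from -0.80 to 1.19. Smad3 and Ltbp1 were higher on the 9, at -1.12 to -0.73 for Smad3 (-1.82 to -1.24 on the 15) and -1.43 to -1.02 for Ltbp1 (-2.47 to -1.54 on the 15). Tgfb1, Smad5 and Smad6 overlapped between the 9 and the 15.

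Markers of other cell types moved beside the members. Of 6 kept macrophage and monocyte markers 4 rose over all months, as Tgfb1 did, and their mean level ran from -1.15 to -0.42 in shams, -0.60 to -0.36 at month 1, -0.70 to -0.17 at month 2 and -0.59 to -0.30 at month 3. Of the 6 endothelial markers 1 rose over all months and 3 at month 3, with 0 lower, the month at which Bmpr2, Smad6 and Skil were called. Their mean level ran from -1.19 to -0.75 in shams, -1.28 to -0.89 at month 1, -1.12 to -0.91 at month 2 and -0.90 to -0.46 at month 3. Among the 6 fibroblast markers 1 rose and 0 fell over all months, and 1 rose and 2 fell at month 3. Their mean level ran from 0.10 to 0.88 in shams, 0.47 to 0.96 at month 1 and 0.53 to 0.98 at month 2, and the 4 month 3 arrays were at 0.79, -0.41, -0.31 and 0.74. Arrays 2 and 3, low in these markers, were also the lowest month 3 arrays of Bmpr1a, Smad5, Smad2 and Smad3 and the highest of Smad6 and Bmpr2. Fibroblast markers were not alone in setting them apart. Of all arrays they were the highest in ventricular muscle markers (6.79 and 6.92) and in the 1 kept T cell marker (-1.45 and -1.96). In platelet markers (3 kept) they were the lowest of all arrays (-3.00 and -2.83). Smooth muscle and pericyte markers (6 kept) gave 2 higher and 1 lower over all months, and their mean level on these arrays (-1.06 and -0.86) was below that of month 3 arrays 1 and 4 (-0.38 and -0.34). The 2 kept neutrophil markers, S100a8 and S100a9, both rose. The part of these cells in the members' changes was not tested.

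Between months, 0 members passed for month 2 against month 1 in limma (7 at an unadjusted p under 0.05), beside 0.0159% of all genes. On slide 2 alone, with 3 month 1 arrays (2, 3 and 4, chosen by the slide) and 4 of month 2, 9 passed (10.3% of all genes): Tgfb2, Tgfb3, Ltbp2, Fstl1, Fstl3 and Id3 higher and Ltbp1, Tgfbr3 and Smad3 lower. On that slide all month 1 arrays were at the lower Myh7 level and all month 2 arrays at the higher. Month and Myh7 level therefore cannot be told apart there. For month 3 against month 2, 2 of 37 passed (5.41%, beside 18.9% of all genes). Bmpr1a was lower (-0.63 ± 0.14, adjusted p = 0.0024) and Bmpr2 higher (0.42 ± 0.12, adjusted p = 0.018). After averaging close arrays neither passed (8.26% of all genes did): Bmpr1a was -0.50 (adjusted p = 0.068) and Bmpr2 0.35 (adjusted p = 0.11). Slide as a block kept the call of Bmpr1a (-0.61, adjusted p = 0.020) and not that of Bmpr2 (0.44, adjusted p = 0.064), beside 7.69% of all genes. The count was 5 without month 3 array 1 and 1 without month 3 array 2 or 3. Without both it was 0 (3 at an unadjusted p under 0.05, and 6.49% of all genes called): Bmpr1a was then -0.37 (adjusted p = 0.14) and Bmpr2 0.27 (adjusted p = 0.31).

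Beyond the members, 37 of 67 other genes of the pathway were measured. Over all months 11 rose and 2 fell, with a median of 0.083, beside 10.9% of all genes higher and 13.6% lower. Averaging close arrays left 7 higher and 1 lower (6.3% of all genes called) and ended the calls of Bgn (0.53, adjusted p = 0.10), Crim1 (0.37, adjusted p = 0.094) and Itgb5 (0.34, adjusted p = 0.085) among those named here. Higher were Lefty2, a secreted Nodal inhibitor (1.14 ± 0.19, adjusted p = 0.00028), Nbl1, a BMP antagonist (0.84 ± 0.20, adjusted p = 0.0050), and Gdf3, a ligand (0.73 ± 0.20, adjusted p = 0.011). So were the matrix proteoglycan Bgn (0.57 ± 0.16, adjusted p = 0.015), the ubiquitin ligase Smurf1, which marks Smads and receptors for degradation (0.55 ± 0.095, adjusted p = 0.00051), and the transcription factor Atoh8 (0.47 ± 0.14, adjusted p = 0.020). Amhr2, a type II receptor, gave 0.42 ± 0.11 (adjusted p = 0.0078) and Crim1, which binds BMPs, 0.39 ± 0.12 (adjusted p = 0.019). The integrin subunits, which release latent TGF-beta, went apart: Itgb5 rose (0.38 ± 0.098, adjusted p = 0.0084) and Itgb6 fell (-0.99 ± 0.22, adjusted p = 0.0028). In these 37 genes at month 3, 11 rose and 8 fell, beside 17.4% of all genes higher and 21.5% lower. Averaging close arrays left 8 higher and 2 lower there (21.9% of all genes called). Without month 3 arrays 2 and 3 it was 6 higher and 2 lower (18.0% of all genes).

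Of the genes that Smad2 and Smad3 are known to drive, 19 of 20 listed were measured, and 7 rose and 0 fell over all months, with a median of 0.48 beside -0.012 for all genes, of which 10.9% were called higher. The count was 5 higher and 0 lower without month 3 arrays 2 and 3, beside 19.4% of all genes called in either direction. Ccn2, a matricellular growth factor, gave 0.93 ± 0.27 (adjusted p = 0.018). Cdkn1a, the p21 cell cycle inhibitor, gave 1.15 ± 0.19 (adjusted p = 0.00039). It was the 1 gene of the 19 still called with close arrays averaged (1.01, adjusted p = 0.028), beside 6.3% of all genes. Acta2, the smooth muscle actin of myofibroblasts, gave 0.74 ± 0.16 (adjusted p = 0.0025), and Postn, a matrix protein of activated fibroblasts, 1.21 ± 0.44 (adjusted p = 0.049). Timp1, a protease inhibitor, gave 1.27 ± 0.43 (adjusted p = 0.034), and Comp, a cartilage matrix protein, 1.38 ± 0.51 (adjusted p = 0.0496). With close arrays averaged Ccn2 was 0.80 (adjusted p = 0.14), Acta2 0.64 (adjusted p = 0.060) and Postn 1.02 (adjusted p = 0.22). Timp1 was then 1.16 (adjusted p = 0.17) and Comp 1.37 (adjusted p = 0.16). Each of these genes also has other regulators. At month 3 6 rose and 0 fell, beside 17.4% of all genes higher, and averaging close arrays left 2, beside 21.9% of all genes called in either direction. Leaving out month 3 arrays 2 and 3 left 3, beside 18.0% of all genes called in either direction.

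Among the 10 calls over all months, Tgfb1 was lost in 1 of 14 other settings of scaling, filter, probe, slide, arrays and model (slide 3 alone). Ltbp3 and (of 13, since the strictest filter removes it) Inhba were lost in 2, Fstl3, Smad5 and Smad6 in 3, Ltbp2 in 4, Tgfb2 and Smad3 in 6, and Acvr1 in 7. Among the 8 calls at month 2, Tgfb1 was lost in 2 of 14, Ltbp1, Fstl3 and (of 13) Inhba in 3, Ltbp2 and Smad3 in 4, Tgfb2 in 7 and Smad5 in 8.

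The 15 members called at month 3 differed in how far they depended on the handling of arrays. Bmpr1a and Smad6 passed when any 1 array was left out and in 14 of 15 other settings of scaling, filter, probe, slide, arrays and model, all but that without month 3 arrays 2 and 3. Smad5 and Skil also passed in 14 of 15, all but slide 3 alone. Tgfb1, Ltbp2 and Bmpr2 missed the threshold in both of these, and Ltbp3 on slide 3 alone and with the percentile over all probes. Ltbp4 and Smad3 missed it in 3 of the 15, Inhbb in 5, Acvr1 and Fstl3 in 6, Smad2 in 8 and Acvr2a in 10.

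**Figure D5:**
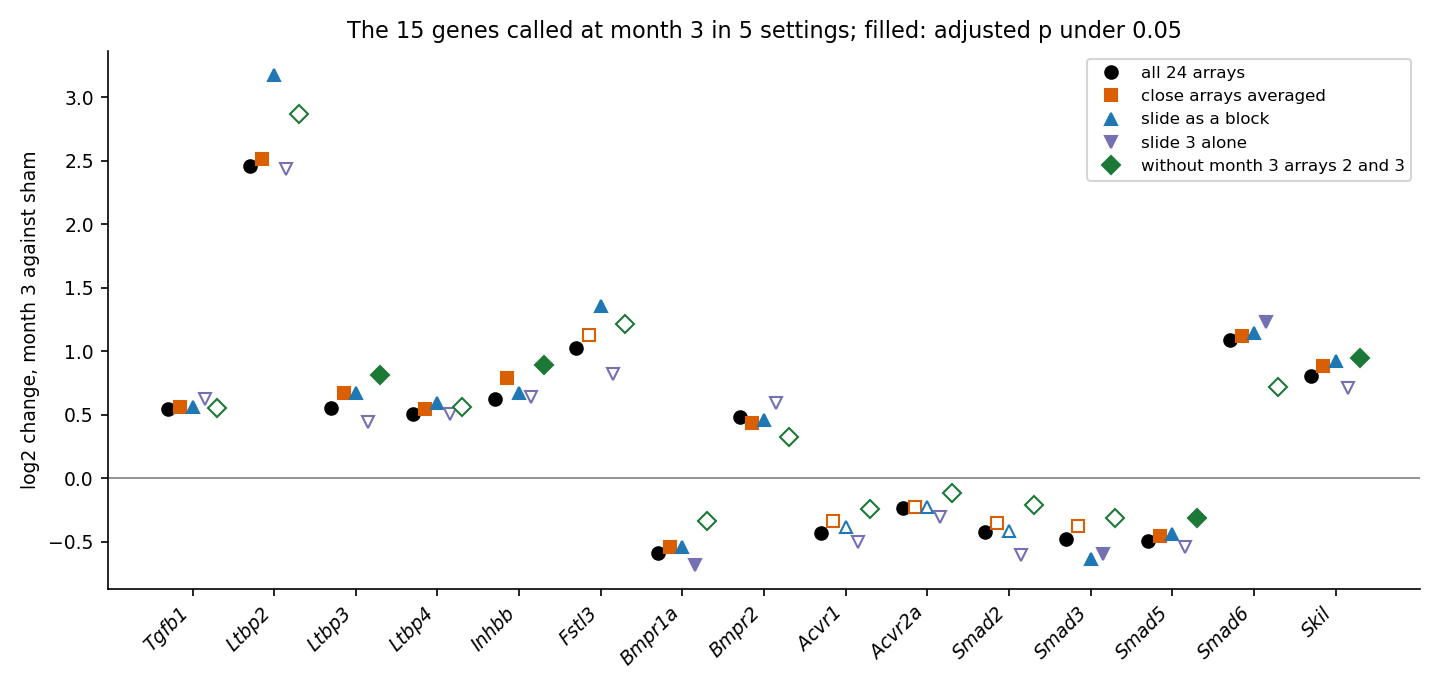
Log2 change at month 3 against sham (vertical axis) of the 15 members called there, under 5 settings; filled symbols passed an adjusted p of 0.05 in that setting. All 5 symbols of a gene lie on 1 side of 0, and those of Bmpr1a and Smad6 are filled except without month 3 arrays 2 and 3.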

How the data were processed

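Per the submitters' processing notes the scans were quantified by Agilent Feature Extraction 10.7.3.1, and coordinates are on mm9, per the file headers. The authors deposited scanner files with spot intensity on a linear scale, background subtracted by the software and not scaled between arrays, and a table that equalled the net intensity within 0.1% on 62976 of 62976 spots of each array. From the processed intensity the log2 value was taken, control and outlier spots (143 to 290 an array) were left out and spots of a probe averaged, and the 75th percentile over 16943 probes detected on all 24 arrays was subtracted from each array. Under 50% of probes were detected on 22 of 24 arrays. A probe was kept if every array of some group had it well above background (21037 of 55681). The brightest kept probe stood for a gene: 31 members had 1 kept probe and 6 had 2, which had the same sign over all months in 5 of 6 genes, with 0 called in opposite directions. Names came from accessions or symbols through a RefSeq table (GRCm38.p6).

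A limma fit of the 4 group means (version 3.58.1 in R 4.3.3, lmFit then eBayes) gave two-sided tests with Benjamini-Hochberg adjustment over 12591 genes. The model was checked on simulated arrays. Members, roles and lists were chosen with earlier results of these data known. All members could be named, with full values for those called in any comparison and for Tgfb1 to Tgfb3, Tgfbr1, Tgfbr2, Smad3, Smad7, Id1 to Id3 and Tgfbi. Of the other pathway genes at most 10, by size of change, were named. Of the genes driven by Smad2 and Smad3 those called over all months were named, except 1 that is not reported here. Alternatives were other scalings, background corrections, filters and probe rules, slide as a block or alone, a replicate block, averaged arrays and each array left out, and, chosen after seeing the data, month 3 without arrays 2 and 3. The number of arrays limits the precision.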

Additional observations from a re-analysis of the deposited data

Results flagged for a closer look

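In 5 of 148 groups of 4 to 10 arrays 1 array stood far from the others by Dixon's criterion, where chance flags about 1 in 20. The highest month 1 level of Bmp6 was that of array 2 (-2.50, the next -2.84), and array 2 also gave the highest of Inhbb (-3.11, the next -3.64). Sham 1 had the lowest sham level of Tgfbr1 (-3.69, the next -3.21), and Sham 2 the highest of Bmpr1a (-0.85, the next -1.20). For Id2, month 3 array 1 was the highest (-1.13, the next -1.82).

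The effect of PSPI at month 3 differed from that at month 2 for 2 members by limma's test of the difference: month 3 minus month 2 was -0.63 for Bmpr1a (adjusted p = 0.0024) and 0.42 for Bmpr2 (adjusted p = 0.018). Both months share the shams. Without month 3 arrays 2 and 3 neither passed.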

How the results depend on the processing

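Scaling and the choice of arrays limit these results. Of 5678 results under other settings and with single arrays left out, 216 lost a call and 140 newly passed, and 0 of 33 called changes passed throughout. Sign changes were counted only where the result was called before or after, which gave 3. Uncalled results also changed sign, such as Id2 over all months (-0.080, and 0.034 with slide as a block). The 3 were Acvr2a at month 3 (0.11 under normexp and 0.16 in the deposited table) and Smad2 at month 3 (0.026 in the deposited table). For all of these the cause was not tested.

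The number of members called over all months (10) was 3 with close arrays averaged and 0 on slide 3 alone. At month 2 (8) it was 3 with no filter, 0 on slide 3 alone, 0 with close arrays averaged, 4 without Sham 3, 4 and 10 and 13 with the replicate number as a block. At month 3 (15) it was 3 on slide 3 alone and 8 without month 3 arrays 2 and 3, a setting chosen after seeing the data. For month 2 against month 1 (0) it was 9 on slide 2 alone, where the months also differed in Myh7 level. For month 3 against month 2 (2) it was 4 under quantile normalization, 1 under normexp, in the deposited table, with slide as a block, with the replicate block and with only the groups compared fitted, and 0 on slide 2 alone, on slide 3 alone, with close arrays averaged and without month 3 arrays 2 and 3.

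Leaving out 1 array gave 6 (without Sham 2) to 13 calls over all months, 0 to 0 at month 1, 1 (without month 2 array 1) to 10 at month 2, 11 to 20 at month 3, 0 to 0 for month 2 against month 1 and 1 to 5 (without month 3 array 1) for month 3 against month 2.

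Among pairs of arrays with the same replicate number in different groups, 9 of 27 deviated together (correlation over 0.1, median 0.0054), so the numbers do not pair the samples. The replicate block, which leaves Sham 1 to 5 as the only shams compared, gave 13 calls over all months, 0 at month 1 and 18 at month 3.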
